A study of Caenorhabditis elegans with 95 samples.

Results

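The RIAILs compared here are 85 recombinant inbred advanced intercross lines of *Caenorhabditis elegans*, 1 library each, picked as the libraries whose genotype label starts with QX. They make up 85 of the 95 libraries measured by RNA-seq, and they were set against 6 libraries of CB4856 (the Hawaii wild isolate) and 4 libraries of N2 (the Bristol laboratory strain). All 95 libraries came from worms on doxycycline (Dox) at 15 µg/mL, so every level is a level under Dox and none is a response to it. By the study's methods, L1 larvae were put on Dox with HT115 bacteria and harvested as L4 worms. The labels describe a lifespan protocol with 5FU instead, and the sources do not say which of these applied. By the study's methods the cross parents were CB4856 and QX1430, a strain of N2 background with deletions of confounder genes, and the N2 libraries here are not of QX1430. A level outside both parental strains therefore cannot be told apart from a difference between QX1430 and N2. Whether the libraries of one parental strain were grown as separate cultures is not stated, so the p-values rest on a spread between libraries that may be technical.

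A recombinant inbred line carries a fixed mosaic of the genomes of its founders. Where a gene's level is set by a variant close to the gene, each line sits near one founder or the other, and the mean of many lines sits near the midpoint of the founders. Where several loci of opposite effect act on the level, or where alleles of the founders act together in a way that neither founder shows, single lines can lie beyond both founders, which is called transgressive segregation. Dox interferes with mitochondrial translation and is used in worms to raise the mitochondrial unfolded protein response (UPRmt), in which chaperones and proteases of the mitochondrion are induced.

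Total counts were 22121202 to 23879871 in the RIAILs, 22981326 to 23506189 in CB4856 and 22901248 to 23715474 in N2. The filter on low counts left 17058 of 46904 genes. Each library name starts with a letter (A to G), taken here as its library series, and only series B, F and G hold all 3 groups. The parental libraries did not all stand at the same stage by their germline markers. N2 replicate 1 had a mean z score of -0.71 for sperm markers and -0.99 for oocyte markers, against 1.097 to 1.27 and 1.66 to 2.15 in the other 3 N2 libraries, and CB4856 replicate 1 was at -0.95 for oocyte markers. In bulk worms, fewer cells of a type and less RNA per cell cannot be told apart.

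Few genes had a RIAIL mean that differed from the midpoint of the parents past the test. The difference between the RIAIL mean and the average of the CB4856 mean and the N2 mean had a median of -0.016 on the log2 scale over 17058 genes, with quartiles of -0.13 and 0.08. By limma-voom with Benjamini-Hochberg adjustment, 4 genes (0.0234%) were higher and 3 genes (0.0176%) were lower in the RIAILs than the midpoint. At an unadjusted p under 0.05, 426 genes were higher and 675 lower, edgeR's quasi-likelihood test called 0 lower, and DESeq2 called 71 higher. A count model fits the log of the mean count of the 85 lines, which lies above the midpoint of log levels for a gene with 2 separate levels among the lines. Of 12687 genes with a mean log2 CPM (counts scaled to library size) of at least 1, 11564 (91.1%) had a 95% interval that lay wholly within 1 log2 unit of the midpoint, and 21 differed from it by more than 1 log2 unit.

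**Figure D1:**
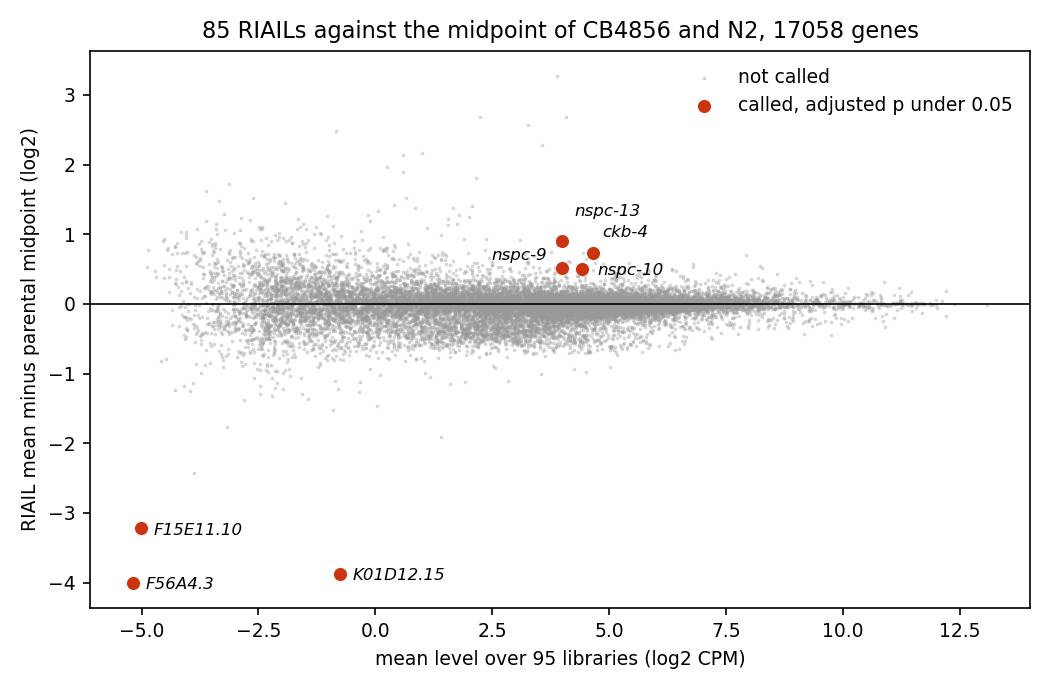
Difference between the mean of 85 RIAILs and the midpoint of CB4856 and N2 (log2, vertical axis) against the mean level over 95 libraries (log2 CPM, horizontal axis), 1 point per gene, with the 7 called genes in red. Most of the 17058 points lie close to 0, and the wide scatter at low levels holds few calls.

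The 4 genes called higher than the midpoint had RIAIL levels close to those of CB4856 and above those of N2. At genes where nearly all RIAILs sit with CB4856, as at 6 of the 7 called, a level that QX1430 shares with CB4856 and not with N2 cannot be told apart from a shift of the RIAILs, since QX1430 was not measured. *ckb-4*, a choline kinase of the B family, lies on chromosome V at 2106398 to 2109434. It had 16.9, 26.5 and 45.7 CPM as the lowest, median and highest of the RIAILs. CB4856 had 19.02, 21.1 and 32.8 CPM and the N2 libraries had 10.1, 11.7, 11.7 and 10.6 CPM. Every RIAIL and every CB4856 library was above every N2 library, and the RIAILs overlapped CB4856. The difference from the midpoint was 0.72 (standard error 0.10, adjusted p = 1.63e-06, limma-voom), and within library series B, F and G it was 0.84, 0.69 and 0.76. The difference from N2 was 1.26 and that from CB4856 was 0.18, of which the second did not pass the test (adjusted p = 0.685, limma-voom). All 85 RIAILs were nearer to CB4856 than to N2 at *ckb-4*. At *pud-3* and *pud-4*, a neighbouring pair 218236 and 220280 bases further along whose proteins are known to be raised in *daf-2* mutants, 35 of the 85 RIAILs (41.2%) were nearer to CB4856.

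The other 3 were *nspc-13*, *nspc-9* and *nspc-10*, members of the nematode-specific peptide family group C, which lie between 12342946 and 12357919 on chromosome X. These genes have near-identical copies, so counts may have been split between them and their values are uncertain. *nspc-13* had 7.80, 17.2 and 27.997 CPM as the lowest, median and highest of the RIAILs, against 15.4, 18.8 and 25.4 CPM in CB4856 and 4.36, 3.61, 4.12 and 3.87 CPM in the N2 libraries. No RIAIL reached down into the N2 values. The difference from the midpoint was 0.90 for *nspc-13* (standard error 0.17, adjusted p = 0.00453), 0.52 for *nspc-9* (standard error 0.11, adjusted p = 0.0205) and 0.50 for *nspc-10* (standard error 0.10, adjusted p = 0.00976), all by limma-voom. At *nspc-9* and at *nspc-13*, 82 of 85 RIAILs (96.5%) were nearer to CB4856, while at the neighbouring *nspc-12*, which starts at 12356194, 48 were (56.5%). Of these 3 calls, that of *nspc-9* was lost without N2 replicate 2, 3 or 4 or without CB4856 replicate 1 or 2 (adjusted p = 0.0572 to 0.203, limma-voom). That of *nspc-10* was lost without N2 replicate 2, 3 or 4 (0.0590 to 0.0893), and that of *nspc-13* without N2 replicate 2 or 4 (0.0675 and 0.0529).

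The 3 genes called lower than the midpoint were of low level, below a mean log2 CPM of 1, and they are named here after their values were seen. *F56A4.3* (chromosome V, 2453414 to 2456147) had 0 counts in 84 of 85 RIAILs and in all 6 CB4856 libraries. The N2 libraries had 6.21, 7.87, 5.01 and 3.95 CPM, or 546 counts in all, against 1 count in all RIAILs together. *F15E11.10*, annotated as a pseudogene (chromosome V, 2345676 to 2348123), had 0 counts in 73 of 85 RIAILs and in all 6 CB4856 libraries, and at most 0.0901 CPM in any RIAIL, against 2.67, 3.27, 2.25 and 2.35 CPM in the N2 libraries. At both genes all 85 RIAILs were at or near the level of CB4856 and none was near N2, and *pud-3*, with 41.2% of RIAILs nearer to CB4856, starts nearby at 2324634. Both were called with limma-voom (adjusted p = 3.23e-56 for *F56A4.3* and 6.37e-32 for *F15E11.10*) and not with edgeR (0.999 and 0.987). The limma-voom error is pooled over all 95 libraries, most of them at 0 counts for these genes. Its p-values therefore do not measure the spread between the N2 libraries, the only ones with a clear level. Fitted fold changes depend on the prior count where nearly all libraries of a group are at 0, so none is given for these genes.

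*K01D12.15* (chromosome V, 12386454 to 12386708) was the 1 gene of 17058 (0.00586%) called below both parental strains, and 0 genes (0%) were called above both. As fitted values of any size, the RIAIL mean was below both parental means at 3800 genes and above both at 2500. It had 0, 0.864 and 12.9 CPM as the lowest, median and highest of the RIAILs, 3.85, 5.37 and 7.67 CPM in CB4856, and 3.08, 11.5, 10.9 and 12.7 CPM in the N2 libraries. The RIAILs fell into separate levels. A low set of 44 RIAILs had at most 0.866 CPM, 29 of them with 0 counts, and the other 41 had 2.31 to 12.9 CPM, which overlaps both parents. The difference was -4.19 from N2 (adjusted p = 0.00206) and -3.57 from CB4856 (adjusted p = 0.0172), by limma-voom, on a fitted scale that depends on the prior count for the RIAILs at 0. The call below both was lost with library series as a block, with stage covariates and with edgeR (0 genes each). With edgeR the adjusted p against the midpoint was 0.600, and with stage scores as covariates in limma-voom it was 0.177. At an unadjusted p under 0.05 in both comparisons, 2 genes lay above and 8 below both parents.

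**Figure D2:**
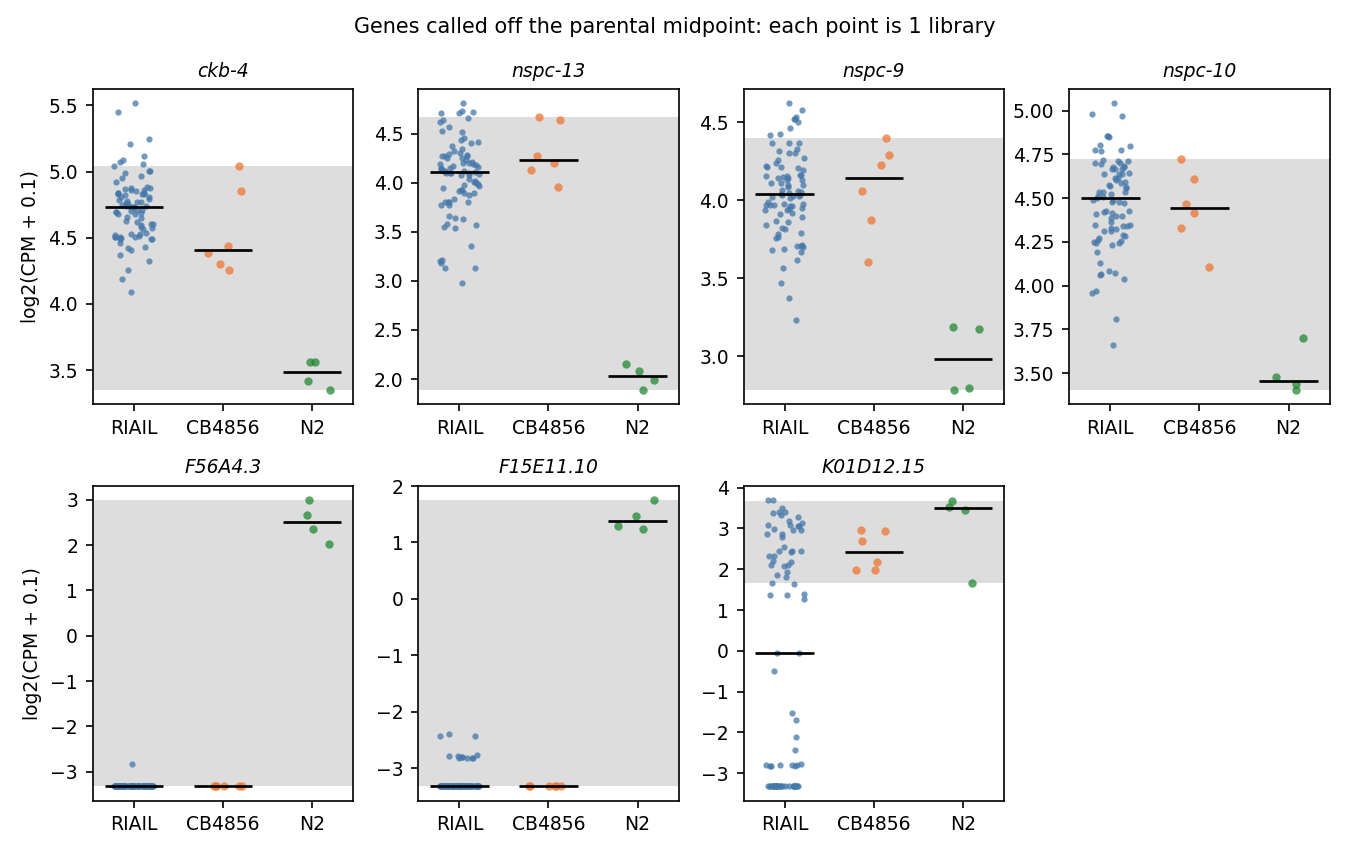
Levels (log2 of CPM with a small constant added, vertical axis) of the 7 genes called off the parental midpoint in 85 RIAILs, 6 CB4856 and 4 N2 libraries. Each point is 1 library, the bar is the group median and the range of the 10 parental libraries is shaded. The RIAILs sit with CB4856 at *ckb-4* and the *nspc* genes and at the bottom of the scale at *F56A4.3* and *F15E11.10*. At *K01D12.15*, 44 of 85 lie at least 1 log2 unit under the shaded range.

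Where the parental strains themselves differed, the RIAIL mean lay between them. CB4856 and N2 differed at 2138 genes (12.5%) in the fit on all 95 libraries, with 845 higher and 1293 lower in CB4856. On a scale from 0 at N2 to 1 at CB4856, the RIAIL mean had a median position of 0.682 over these genes, with quartiles of 0.575 and 0.776. It lay between both parental means at 2118 of them (99.1%), beyond CB4856 at 20 and beyond N2 at 0. These genes were chosen by the difference between the same parental means, which favours a RIAIL mean between them, so this share is a description. With molting, sperm, oocyte and vitellogenin scores as covariates, 1788 genes were called and the median position was 0.559. Leaving out N2 replicate 3 left 673 genes called and leaving out N2 replicate 2 left 715.

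In the fit on all 95 libraries, the spread among RIAILs is part of the error, so genes at which the RIAILs split into separate levels were often not called between the parents. For *pud-3*, close to 0 in CB4856 and not in N2, the adjusted p between CB4856 and N2 was 0.280, and on the 10 parental libraries alone it was 2.71e-05, both by limma-voom. A set of 168 genes had non-overlapping parental libraries, at least 3 log2 units between the parental means and a higher mean of at least 5 CPM. They were chosen on these values, so the difference between their parents is a description, and 49 of them were called between the parents in the fit on 95 libraries. They lie on chromosomes I (15 genes), II (52), III (12), IV (20), V (64) and X (5), and were higher in CB4856 at 62 and higher in N2 at 106.

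At these 168 genes the RIAILs were mostly within 1 log2 unit of one parental range or the other. The share of RIAILs nearer to CB4856 had a median of 51.8%, with a range of 27.1% to 100%, and lay between 35% and 65% at 137 genes. By chromosome the lowest median share was 47.1% on I and the highest 63.5% on III, with 50.6% on II, 59.4% on IV, 52.4% on V and a median of 51 of the 85 RIAILs on X. The median was 56.5% at the 62 genes higher in CB4856, which hold 21 of the 27 genes at 65% or more, and 50.6% at the 106 higher in N2. A median of 2 RIAILs per gene lay more than 1 log2 unit from both parental ranges, and at 42 genes none did. Where the ranges widened by 1 log2 unit meet, no level between the parents can be counted, which lowers these numbers. Neighbouring genes share their alleles, so these genes are not independent counts.

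The genes at the ends of that range were the following. *ugt-25*, a UDP-glucuronosyltransferase on chromosome I, had the lowest share, with 23 of 85 RIAILs nearer to CB4856 (27.1%). It had 0.629, 17.8 and 57.1 CPM as the lowest, median and highest of the RIAILs, against 0.910, 1.13 and 1.66 CPM in CB4856 and 45.4, 39.6, 26.4 and 41.5 CPM in the N2 libraries. The RIAILs spanned both parental levels, with most of them towards N2. *F26A3.5* on chromosome I followed at 31.8%, then *lipl-3*, a lipase of chromosome V, and *Y19D10B.1*, a pseudogene, both at 34.1%, and *C27C7.1* at 35.3%. At the other end *F56A4.3* was at 100%, *fbxa-30*, an F-box gene of chromosome III, at 85.9%, *Y71G12B.18* and *K06H6.2* followed with 68 of 85 RIAILs each, and *K06H6.1* at 78.8%. *fbxa-30* had 0.175, 3.68 and 8.02 CPM in the RIAILs, 5.20, 5.50 and 9.67 CPM in CB4856 and 0.247, 0.172, 0.297 and 0.463 CPM in the N2 libraries. The highest RIAIL of *fbxa-30* was within the CB4856 range and the lowest within that of N2.

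**Figure D3:**
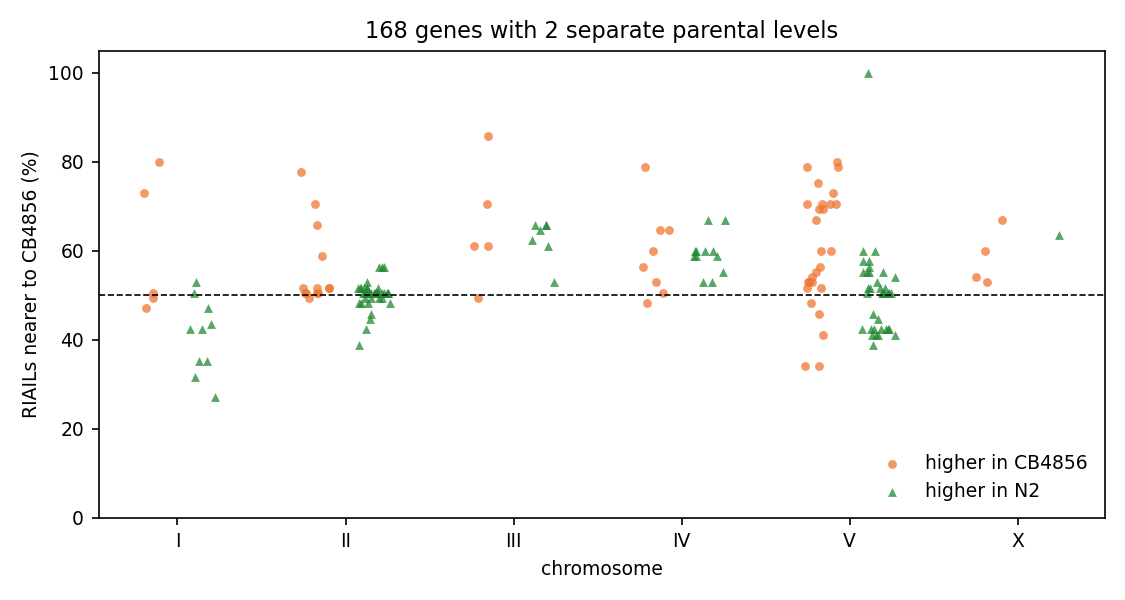
Share of the 85 RIAILs whose level was nearer to CB4856 than to N2 (percent, vertical axis) at 168 genes with 2 separate parental levels, by chromosome, with circles for genes higher in CB4856 and triangles for genes higher in N2. Most points gather around the dashed line at 50%, and 27 genes lie at 65% or more against 4 at 35% or less.

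Single RIAILs were then set against the range of the parental libraries. A RIAIL was counted as beyond the parental range when its log2 CPM (prior count 2) was at least 1 unit above the highest or below the lowest of the 10 parental libraries. At 12195 genes no RIAIL was, while 1971 genes had at least 1 RIAIL above and 3207 at least 1 below. Over all genes and RIAILs, 0.322% of levels were above and 0.842% below, while the median RIAIL had 0.141% above and 0.135% below. When each parental library was held out against the other 9, 0.00586% to 0.592% of its genes were above (mean 0.164%) and 0.0410% to 0.621% below (mean 0.237%). Parental libraries thus crossed the range of the others too. Their means were lower than the 0.322% and 0.842% over all RIAILs, although a held-out library faced 9 libraries and a RIAIL faced 10. The median RIAIL, at 0.141% and 0.135%, was under both held-out means. A typical RIAIL was thus no further out than a parental library, and 5 RIAILs held 60.8% of the cases below.

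At least 9 of 85 RIAILs were above the range at 73 genes (0.428%) and below it at 70 genes (0.41%). Just outside this limit, with 8 RIAILs, were 20 genes above and 109 below, and just inside, with 9 RIAILs, were 22 above and 39 below. Of the 73, 13 had a mean log2 CPM of at least 1, and of the 70, 44 did. None of the 73 or the 70 was called between the parents in the fit on 95 libraries, while on the parental libraries alone 16 of 32 tested and 9 of 67 tested were. Chromosome V held 37 of the 73 and 20 of the 70, beside 3624 of the 17058 genes (21.2%). Without the 5 RIAILs with the most genes below the range, an alternative chosen after the data were seen, 24 genes were below. Without QX571 there were 45, without N2 replicate 1 there were 303, and without CB4856 replicate 1 there were 197. Above the range the counts were 138 without N2 replicate 1 and 122 without CB4856 replicate 1.

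The clearest lower set was at *haf-6*, an ABC transporter gene that worms need for efficient RNA interference, on chromosome I at 1162880 to 1175809. The RIAILs had 5.71, 38.1 and 98.9 CPM as the lowest, median and highest. CB4856 had 37.98, 44.2 and 47.9 CPM and the N2 libraries had 42.1, 42.8, 40.4 and 34.1 CPM. In 36 RIAILs *haf-6* was at 5.71 to 10.1 CPM (median 7.66), in 48 it was at 33.04 to 54.4 CPM, and no RIAIL lay between these sets. The remaining RIAIL, QX571, had the 98.9 CPM. Both parents were in the upper set and differed little from each other (0.19 for CB4856 minus N2, adjusted p = 0.233, limma-voom on the 10 parental libraries). The low set was found in all 7 library series. The SD among RIAILs was 1.26 log2 units, against 0.13 between libraries of the same parental strain (adjusted p = 2.75e-06, F test over all genes). *haf-6* was named by these same levels, so this p-value adds no separate evidence for the low set. At *Y71G12B.18*, the nearest of the 168 genes at 477067 bases away, 32 of the 36 low RIAILs were nearer to CB4856, and so were 36 of the other 49.

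*T19C3.5* on chromosome III, at 624578 to 627938, showed another low set of 29 RIAILs. These had 0.210 to 1.18 CPM and the other 56 had 2.84 to 10.1 CPM, against 5.91, 7.05 and 9.70 CPM as the lowest, median and highest of CB4856 and 3.91, 5.37, 4.67 and 6.90 CPM in the N2 libraries. The parents overlapped, and the low RIAILs were below every parental library. The low set matched the parental level at another gene of the same chromosome. At *pals-23*, which lies 496607 bases away and belongs to a family of proteins with an ALS2CR12 signature, all 29 low RIAILs of *T19C3.5* were nearer to N2 and all 56 others nearer to CB4856. *pals-23* was the best match among 11 candidate genes of chromosome III, so this agreement is a description of these lines.

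*scb-1*, a gene tied to the response of worms to bleomycin, lies on chromosome V at 11118766 to 11119705. It had 7.12 to 9.82 CPM in a low set of 24 RIAILs and at least 10.5 CPM in the other 61. CB4856 had 22.3, 24.1 and 25.7 CPM as lowest, median and highest and the N2 libraries had 23.9, 23.9, 20.8 and 23.04 CPM. The parental levels of *scb-1* were almost the same, and the RIAILs ran without a gap from the low set upwards. *K11G9.5*, also on chromosome V, at 6685807 to 6688492, was at 1.65 to 4.81 CPM in 36 RIAILs and at 5.14 to 23.5 CPM in 48, with 61.03 CPM in QX571. Its level was 9.96, 11.7 and 19.5 CPM in CB4856 and 17.3, 13.2, 17.5 and 18.4 CPM in the N2 libraries. The low sets of *scb-1* and *K11G9.5* shared 20 RIAILs, which is 83.3% of the low set of *scb-1* and 55.6% of that of *K11G9.5*. The low set of *K11G9.5* took in 36 of all 85 RIAILs, so part of this overlap would arise without any link. The 83.3% was the highest share among the pairs of low sets compared, and no overlap was tested. At *clc-11*, 5019055 bases from *scb-1*, 20 of the 24 low RIAILs of *scb-1* were nearer to N2 and 53 of the other 61 nearer to CB4856. At *phat-3*, 2640856 bases from *K11G9.5*, 32 of its 36 low RIAILs were nearer to N2, and so were 18 of the other 49. Each of these marker genes was the best match among 59 candidates on chromosome V.

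For *K01D12.15*, the gene called below both parental strains, 41 of the 44 low RIAILs were nearer to CB4856 at *nspa-8*, 2440240 bases away on chromosome V, and 31 of the other 41 were nearer to N2, again the best match of 59 candidates. Its low set, 44 of the 85 RIAILs, and that of *scb-1*, 24 of the 85, shared 1 RIAIL, and this overlap was not tested.

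The remaining genes with the most RIAILs below the range had smaller sets and more overlap. *C46F2.1* on chromosome X was below in 16 RIAILs (4.97 to 7.22 CPM, against 18.8 to 32.2 CPM in CB4856 and 14.8 to 18.4 CPM in N2). *far-3*, which encodes a fatty acid and retinol binding protein, was below in 13. *R03G8.6*, *ilys-3*, an invertebrate-type lysozyme gene, and *nas-31*, an astacin protease gene, were below in 12 each, as was *pes-23*, tied but of lower mean level. For *nas-31* the low RIAILs had 0.0414 to 1.21 CPM, against 3.57 to 5.19 CPM in CB4856 and 4.43 to 5.93 CPM in N2. The rest of its RIAILs, at 2.03 to 7.01 CPM, took in all parental levels.

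Among genes with RIAILs above the range, *Y49G5A.1* on chromosome V, at 5286343 to 5287373, went both ways. It was at 21.3 to 68.3 CPM in 27 RIAILs and at 0.437 to 1.402 CPM in 15, with 1.48 to 19.1 CPM in the other 43. CB4856 had 3.73, 4.75 and 9.70 CPM as lowest, median and highest and the N2 libraries had 5.39, 4.56, 2.93 and 3.66 CPM. The parental strains overlapped in the middle of a RIAIL range that ran far to either side. *F59C6.18* on chromosome I was at 17.5 to 84.3 CPM in 25 RIAILs, against 0.744, 2.23 and 3.32 CPM as lowest, median and highest in CB4856 and 7.24, 8.56, 6.16 and 2.31 CPM in the N2 libraries. The high RIAILs of *F59C6.18* were found in all 7 library series, as were those of *Y49G5A.1*.

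At 10 RIAILs each, *rips-1*, *col-8*, *C38D9.2*, *pud-3* and *dach-1* followed, and at 9 each *C14C6.2*, *mltn-1* and *F15D4.5*, with *col-143*, *glc-1* and *F19B2.5* tied at 9 but of lower mean level. The 9 RIAILs of *C14C6.2* were all in library series C, which holds 11 RIAILs. The highest CB4856 library of that gene, replicate 1 with 27.4 CPM, was also of series C, and with levels centred within series 0 RIAILs were above. Line and series cannot be told apart for *C14C6.2*. For *dach-1*, 6 of the 10 were in series C and 1 RIAIL was above with levels centred within series. *pud-3* had 0, 25.7 and 402 CPM as the lowest, median and highest of the RIAILs, 0, 0.153 and 0.220 CPM in CB4856, and 16.488, 63.98, 44.5 and 49.6 CPM in the N2 libraries. The 10 RIAILs with 138 to 402 CPM of *pud-3* were thus above the parent with the higher level. With levels regressed on stage scores, *mltn-1* and *C14C6.2* had 0 RIAILs above, *rips-1* and *pud-3* 3 each, *col-8* 4 and *dach-1* 6. *Y49G5A.1* then had 20 above and 6 below, *F59C6.18* had 31 above and *haf-6* had 26 below.

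Below a mean log2 CPM of 1, where few counts often set the parental range, more genes had RIAILs above it, and those given here were named after their values were seen. *srw-85*, a chemoreceptor gene of the srw class on chromosome V at 19429387 to 19431136, was above the range in 41 RIAILs, more than any other gene. These had 3.25 to 30.8 CPM and the other 44 had at most 0.569 CPM, against 0 to 0.0875 CPM in CB4856 and 0.452, 0.258, 0.0850 and 0.168 CPM in the N2 libraries. All 41 were nearer to N2 at *C25F9.11*, which lies 1311 bases from *srw-85*, and 43 of the other 44 were nearer to CB4856, although the N2 libraries held 23 counts of *srw-85* in all. *ZK1025.1*, a pseudogene of chromosome I, was above in 36, and all 36 were nearer to N2 at *C27C7.1*, 2743 bases away. *T19C9.8* (17239097 to 17240721) was above in 30, at 14.3 to 64.4 CPM. Its highest parental library was at 2.82 log2 CPM, so its range was not set by few counts. CB4856 minus N2 was -7.72 log2 units at *T19C9.8* (adjusted p = 3.61e-08, limma-voom on the 10 parental libraries). By coordinates it overlaps a short end of *T19C9.10* (17236592 to 17239246), which was above in 16. *asp-17*, an aspartyl protease gene, was above in 28 and *nspc-16* in 26, and of these 27 and 26 were nearer to N2 at a gene within 9725 and 80125 bases.

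Levels also varied more among RIAILs than between libraries of the same parental strain at 1106 of 17058 genes (6.48%, F test with Benjamini-Hochberg adjustment). The median SD was 0.398 log2 units among RIAILs and 0.324 within parental strains, and the median ratio with the moderated parental SD was 1.17. On chromosomes II and V 9.60% and 9.55% of genes were called, beside 5.72% on IV, 4.70% on I, 4.34% on III and 3.04% on X. Of the 1106, 284 were called between the parents in the fit on 95 libraries, and 663 of 899 tested on the parental libraries alone. Of the genes with 9 or more RIAILs beyond the range, 58 of 73 above and 33 of 70 below were among the 1106, which use the same levels. The count was 2773 without N2 replicate 1, 1713 with levels regressed on stage scores and 2233 with levels centred within library series.

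The spread fell unevenly on gene families. Genes with MATH or BATH domains, thought to bring substrates to ubiquitin ligases, were called in 27 of 60, with a median SD ratio of 1.82. The fbxa genes, F-box genes of the same kind of ligase, were called in 36 of 136 (26.5%), the pals genes in 8 of 30 (26.7%) and C-type lectins, many of them answering to microbes, in 30 of 168 (17.9%). Collagens were called in 15 of 142 (10.6%), chemoreceptors in 17 of 161 (10.6%) and nuclear hormone receptors in 4.83% of those tested, beside 6.48% over all genes. Cytosolic ribosomal proteins were called in 0 of 78, mitochondrial ribosomal proteins in 0 of 70 and proteasome subunits in 0 of 33, with median SD ratios of 0.863, 0.979 and 0.940.

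Mitochondrial genes, which the Dox treatment bears on most directly, were near the midpoint. Of 19 UPRmt genes none was called, beside 7 of all 17058 genes, so the lack of a call in a short list says little. Of the 19 differences 18 were positive, beside 7746 of 17058 over all genes. Their median was 0.10 on the log2 scale, beside -0.016 over all genes. The largest was that of *tsfm-1*, a mitochondrial elongation factor, at 0.24 (adjusted p = 0.749, limma-voom). The summed level of the 19 genes was 2236, 3047 and 3714 CPM as the lowest, median and highest of the RIAILs, 2709, 3237 and 3411 CPM in CB4856 and 2335, 2632 and 2876 CPM in N2. The median RIAIL was between the medians of the parents. *hsp-6*, the mitochondrial chaperone gene used as a reporter of the UPRmt, had 452, 645 and 913 CPM in the RIAILs, 624, 731 and 851 CPM in CB4856 and 378, 551, 597 and 501 CPM in the N2 libraries. Its difference from the midpoint was 0.10 (95% interval -0.06 to 0.27, adjusted p = 0.755), and it was higher by 0.38 than in N2 (adjusted p = 0.0381), both by limma-voom. No RIAIL was 1 log2 unit beyond the parental range at any of the 19 genes. Of the 12 genes of the mitochondrial genome, *MTCE.16* was below the range in 11 RIAILs and above it in 4. It was called in the spread test, which uses the same levels (adjusted p = 0.00439, F test over all genes). The 12 genes of the mitochondrial genome had a median difference from the midpoint of 0.14, and 35 nuclear genes of oxidative phosphorylation of 0.05. The 13 genes of peroxisomal beta-oxidation, which shortens fatty acid chains, had a median of 0.12 with 13 of 13 positive. None of these genes was called off the midpoint.

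Germline markers were the lists furthest from the midpoint, with no gene called, beside 7 of 17058 over all genes. All 29 sperm markers, mostly major sperm proteins, lay below the midpoint, beside 9312 of all 17058 genes. Their median was -0.64, with the smallest adjusted p at 0.749 (limma-voom). Their summed level was 23.5, 589 and 1853 CPM as the lowest, median and highest of the RIAILs, 350, 620 and 987 CPM in CB4856 and 289, 1698 and 1930 CPM in N2. The 3 groups overlapped, and the median RIAIL was close to that of CB4856. All 16 oocyte markers were also below, with a median of -0.44. Of 22 genes of DNA replication and the cell cycle 19 were below, with a median of -0.15. Molting, adult cuticle, vitellogenin, and neuron markers had medians of 0.11, -0.06, -0.02 and 0.02, and 11 intestine markers had 0.18. Of 14 male markers tested, none was called, and 10 were above the midpoint, with a median of 0.27. The part of stage in the genes described above was not tested beyond the stage scores given beside them.

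The genes beyond the parental range were gathered in few RIAILs. The median RIAIL had 24 genes above and 23 below, and 64 RIAILs had under 50 genes above and 63 under 50 below. QX552 had 1931 genes below, QX560 1712, QX563 1490, QX555 1196 and QX544 1095. These 5 held 7424 of the 12213 cases below (60.8%). Series B and C, which hold 10 and 11 RIAILs, contain all 5. Above the range, QX571 had the most genes with 779, followed by QX501 with 291 and QX531 with 219.

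Sperm genes stood out in the 5 RIAILs with the most genes below. Of 29 sperm markers, 24 were below the range in QX552, 26 in QX560, 22 in QX563, 20 in QX555 and 20 in QX544, beside 11.3%, 10.04%, 8.73%, 7.01% and 6.42% of all genes tested in the same lines. Sperm markers were also below in QX536 (16), QX547 (10) and QX503 (7), beside 3.61%, 0.991% and 2.28% of all genes tested. In the 5 lines their summed level was 43.1, 23.5, 84.2, 89.9 and 89.5 CPM, against 350 CPM in the lowest CB4856 library and 289 CPM in the lowest N2 library. Molting markers, which peak at each larval moult, were above the range in 10 of 24 in QX552, 9 in QX560 and 9 in QX563 and in 0 in QX555 and QX544. Of all genes tested, 1.03%, 1.13%, 0.674%, 0.111% and 0.422% were above in these lines, in the same order. Of 142 collagens, which build the cuticle, 60 were below in QX552, 47 in QX560 and 49 in QX563, against 1 in QX555 and 0 in QX544. The part of stage in these sets was not tested. Of the genes below in these 5 RIAILs, 0.334% to 5.33% lay on the X chromosome, which holds 13.9% of the genes tested.

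QX571 differed in kind, with 779 genes above and 225 below. The genes above lay on all chromosomes, with the most on V (236) and the fewest on III (91). They took in 20 of 136 fbxa genes, 8.21% of nuclear hormone receptors and 5 of 15 snRNP and splicing genes, beside 4.57% of all genes tested. Of 142 collagens, 43 were below, beside 1.32% of all genes. Its 98.9 CPM of *haf-6* and 61.03 CPM of *K11G9.5* were the highest of all 95 libraries.

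**Figure D4:**
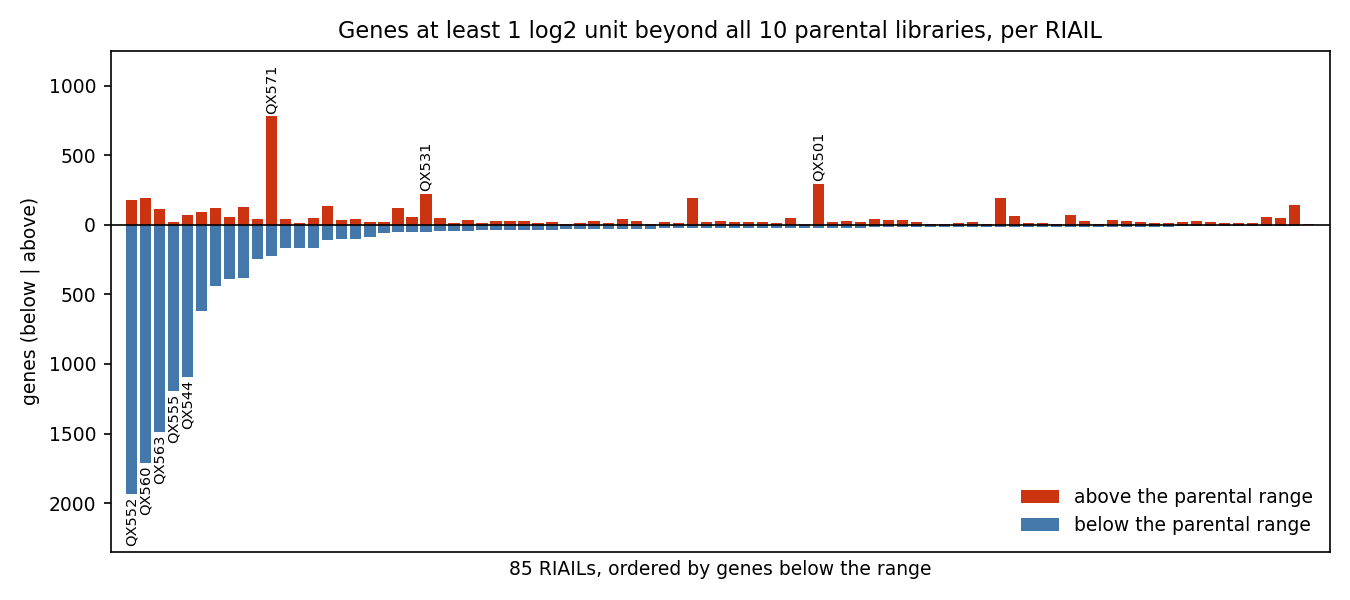
Number of genes at least 1 log2 unit above (red, upwards) and below (blue, downwards) all 10 parental libraries in each of the 85 RIAILs, ordered by the number below. The 5 bars furthest down are QX552, QX560, QX563, QX555 and QX544 with 1095 to 1931 genes below, and QX571 reaches furthest up with 779.

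Loss of a gene that every parental library expressed was seen in 5 of the 85 RIAILs at these limits, and gain of a gene close to absent in every parental library in 2. At 293 genes with at least 5 CPM in all 10 parental libraries, a RIAIL had less than 1/16 of the lowest parental level. QX560 held 240 of these cases and QX552 99, and 292 of the genes were lost in QX560 or QX552, with 15 genes in QX562, 3 in QX574 and 1, *R10E8.1*, in QX515. *C27D9.2* was the gene lost in the most RIAILs, in QX552, QX560, QX562 and QX574, with 0.0823 CPM in the lowest of these against at least 7.94 CPM in every parental library. The collagen genes *col-88* and *col-137* were lost in QX552, QX562 and QX574. In QX562 and QX574 molting markers were above the range in 4 and 11 of 24, beside 0.727% and 0.762% of all genes tested. Collagens were below it in 62 and 60 of 142, beside 2.58% and 2.23% of all genes, and the part of stage was not tested. *col-88* was down to 1.56 CPM, against at least 216 CPM in every parental library. Also lost in both QX552 and QX562 were *col-60*, *col-124*, *col-106*, *col-140* and *col-139*. Many more genes tied at 2 RIAILs, and these 5 had the highest parental levels among them. Lost in both QX552 and QX560 were sperm markers such as *msp-31*, *msp-76* and *msp-78*. Of the 293 genes, 232 were lost in 1 RIAIL only, among them the sperm markers *gsp-3*, *gsp-4* and *msp-40* in QX560. The genes lost were thus not chiefly collagens.

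At 17 genes with at most 2 counts in each parental library, a RIAIL reached 5 CPM, and all 17 did so in QX501. The highest was *C09G12.5* with 20.9 CPM, which also passed in QX505, followed by *clec-130*, a C-type lectin gene, with 17.1 CPM, *F19H6.5* with 13.4 CPM, *nspf-3* with 10.2 CPM, *F46B6.13* with 9.70 CPM, *nas-17* with 8.23 CPM, *T22G5.1* with 6.89 CPM and *flp-23*, a neuropeptide gene, with 6.67 CPM. QX501 also had 10 of 14 male markers and 27 of 168 C-type lectins above the parental range, beside 1.71% of all genes tested. Its summed level of the 15 male markers listed was 148 CPM, against at most 18.3 CPM in CB4856 and 23.3 CPM in N2. Male markers were also above the range in QX505 (8 of 14), QX540 (5 of 14) and QX518 (5 of 14). Of all genes tested, 1.14%, 1.14% and 0.827% were above in these 3 lines. The part of males in these levels was not tested.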

How the data were processed

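The authors sequenced RNA on the BGISEQ-500 platform, and per the labels used FastQC for read quality and STAR, given as version 2.73a, for alignment to WBcel235. They deposited raw counts per gene. For the counter, the strand setting and the annotation release, the versions and settings were not given in the sources used here. Reads of CB4856 alleles met a reference of N2 sequence, which can lower their counts. Control libraries, genotypes and lifespans are not analysed here.

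Counts were analysed in R 4.3.3. Genes were kept with filterByExpr of edgeR 4.0.16 over the 3 groups and scaled by TMM, and limma 3.58.1 (voom, lmFit, eBayes) was fitted to all 95 libraries, two-sided, with Benjamini-Hochberg adjusted p under 0.05. This is the test the study states. A count of RIAILs beyond the range used a margin of 1 log2 unit and a minimum of 9 RIAILs and has no p-value. The spread test is the F ratio of the variance among RIAILs to the within-strain parental variance, moderated with squeezeVar. Gene positions are those of the Ensembl 115 annotation of WBcel235, which held 46817 of the 46904 genes, and 44017 had a symbol. Scripts were tested on simulated data. The alternatives were edgeR, DESeq2 1.42.0, other scaling, filters, margins, prior counts, weights and midpoints, series and stage terms, and leaving out each parental library.

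Genes named are the called genes of mean log2 CPM of at least 1 with the same sign in series B, F and G, the 10 genes with the most RIAILs above and below (ties by mean level), the 8 lost or gained in the most RIAILs, the 5 highest and 5 lowest shares of RIAILs nearer to CB4856, and members of smallest p in each list. Others were named after their values were seen. Members and lists were chosen with earlier results of these data known.

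No 2 libraries had identical counts. Titles give a batch number to 4 libraries of N2 and 4 of CB4856, and on that ground the numbers were taken to pair them. For libraries sharing a number, deviations from the mean of each strain had correlations of 0.607, 0.0998, 0.275 and -0.317 across genes, against -0.681 to 0.662 for different numbers. RIAILs carry no such number.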

Additional observations from a re-analysis of the deposited data

Results flagged for a closer look

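In 13 of 80 groups tested (CB4856 and N2 at each of 40 named genes), 1 library stood far from the others of its strain. Chance alone gives about 1 in 20, and no explanation was tested. Several of these libraries set the end of the parental range that the RIAILs were measured against.

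Among CB4856 libraries, replicate 5 had 94.8 CPM of *col-8*, a cuticle collagen gene, beside 0.569 to 8.79 CPM in the others, and 19.5 CPM of *K11G9.5*, beside 9.96 to 12.207 CPM. It was also the only CB4856 library with any count of *T19C9.8* (0.0433 CPM). Replicate 6 had 20.2 CPM of *C38D9.2*, beside 11.999 to 14.2 CPM, and 17.6 CPM of *F15D4.5*, beside 8.33 to 10.7 CPM. Replicate 1 had 27.4 CPM of *C14C6.2*, beside 6.70 to 14.4 CPM. Replicate 4 had 23.6 CPM of *ilys-3*, beside 3.08 to 5.47 CPM.

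Among N2 libraries, replicate 1 had 233 CPM of *far-3*, beside 62.1 to 82.4 CPM, 18.4 CPM of *C46F2.1*, beside 14.8 to 15.3 CPM, and 12.212 CPM of *F26A3.5*, beside 40.3 to 44.4 CPM. Replicate 2 had 0.172 CPM of *nspc-16*, beside 0.715 to 0.822 CPM. Replicate 4 had 0.0841 CPM of *ZK1025.1*, beside 0.0411 to 0.0430 CPM, and 0.0841 CPM of *Y19D10B.1*, beside 0 in the other 3, which are differences of 1 or 2 counts.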

How the results depend on the processing

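No gene called off the midpoint changed the direction of its difference under any alternative run. Counts have no direction that could reverse, and those that changed most are given here. The 4 genes above the midpoint became 71 with DESeq2. The 3 below became 0 with edgeR, 1 with at least 1 CPM in 10 libraries, 6 with library series as a block and 5 with separate variance weights. The 1 gene below both parents became 0 with edgeR, the series block or stage covariates. The 73 genes with RIAILs above the range became 47 with the stricter filter, 4891 with a margin of 0 and 6 with a margin of 2. The 70 below became 6332 and 5 with those margins, 179 with a prior count of 0.5, 33 after regression on stage scores, 355 centred within series, 24 without the 5 RIAILs named above and 45 without QX571 (the last 2 added after the data were seen). Genes of larger spread became 1713 after regression on stage scores and 2233 centred within series. Without 1 parental library at a time, the counts ran from 1 to 5 above the midpoint, 3 to 4 below it, 0 to 0 above both parents, 0 to 2 below both, 673 to 2752 between the parents, 73 to 138 and 72 to 303 for the range above and below, and 836 to 2773 for spread. Of the values for single genes over the alternatives, 141 midpoint differences kept their direction and, where the alternative gave a test, stayed called. Those of the 141 from alternatives without a test have no threshold, and moved by no more than the SD among RIAILs. A further 17 lost the call, and 8 from alternatives without a test moved by more than that SD. Of the counts of RIAILs, 460 stayed within 1.5 times the reported count and 59 did not.

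Blocking on the number that titles call a batch, the 8 numbered libraries gave 1831 genes between CB4856 and N2, against 1474 without the block and 2324 on all 10 parental libraries. No paired analysis of the RIAILs was possible because they carry no number. Each RIAIL has 1 library, so a line and its library cannot be told apart, and 4 and 6 parental libraries give a narrow range.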
